A study of Nicotiana tabacum with 78 samples.

Results

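Protein kinases and other genes whose names hold the word kinase were described in roots and leaves of topped and untopped tobacco. They were taken from a table of genes that the authors had selected because they differed between root groups. A gene was taken when its Swiss-Prot or its tomato (Solyc) description held "kinase" and neither description held a word for cyclins, mitosis, cell division, histones, kinesins or chloroplast proteins. There, 66 genes held "kinase", 2 were left out by those words, and 64 remained, beside 2011 genes of other kinds. The 64 were split into 23 receptor-like genes and 41 others.

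The names fitted the label of protein kinases only in part. By name, 38 of the 64 genes encoded kinases of proteins, 17 of them receptor-like. This count includes NITAB004271, NITAB017464, NITAB016126 and NITAB016172, which are named probable inactive receptor kinases. Another 3 were regulatory subunits of a kinase complex and 14 were kinases of sugars, nucleotides, pyruvate, choline or lipids. For the remaining 9 the Swiss-Prot match was no kinase at all, and only the tomato description held the word. The 64 genes are therefore called kinase-annotated genes here.

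Tissue came from PMT1, PMT2 and PMT3, lines in which RNAi driven by a constitutive promoter targets putrescine N-methyltransferase (PMT), an enzyme on the route to nicotine, and from TN90, the untransformed Burley cultivar. Flowering greenhouse plants were topped, meaning that the top of the plant was cut off, and sampled a day later, or were left untopped. The 4 genotypes, 2 tissues and 2 treatments give 16 groups, and 77 of 78 samples were assigned to them. Line and tissue were read from the sample title, which often differs from the tissue tag, and treatment was read from its tag. Most groups have 5 samples, and 3 have 4: topped TN90 leaves, untopped leaves of PMT2 and untopped roots of PMT3. For each gene the table holds 1 RPKM value (reads per kilobase of gene, scaled to the mapped reads of a library) per group, the authors' mean over libraries. The groups are listed below as PMT1, PMT2, PMT3 and TN90, unless named otherwise. Without values per library there is no spread, no test and no p-value for any difference described here, and differences are given as folds of RPKM + 0.1.

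Protein kinases pass signals on by moving a phosphate from ATP onto other proteins. Plant receptor-like kinases sit in the plasma membrane, bind peptides, hormones or cell wall pieces outside the cell and signal through a kinase domain inside it. Within the cell, MAP kinase cascades, calcium-regulated kinases and the SnRK family relay wounding, drought, salt, abscisic acid and sugar signals. Topping combines wounding with the loss of the shoot tip, which is a source of auxin, and it is the farming practice that raises alkaloid production in tobacco roots.

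The listed libraries held 22078414 to 150334394 reads in roots (40 libraries) and 16299684 to 517291516 reads in leaves (37 libraries). The library list has 3 libraries for topped TN90 leaves and 6 for topped PMT2 roots, against 4 and 5 samples in the labels. The 5 PMT genes of the table summed to 28.5 to 86.9 RPKM over the root groups of the lines, while the sums for TN90 roots were 842 RPKM (topped) and 90.7 RPKM (untopped). Of 16 genes named for chlorophyll a-b binding proteins, Rubisco small subunits or photosystems, 10 were higher in all 8 leaf groups than in any root group and 4 were lower, and their sum was 105 to 225 RPKM in roots, against 3188 to 4965 RPKM in leaves. No gene name in the table held the word root, so roots had no marker of their own. In 36 of 78 samples the tissue in the title and the tissue tag differ, and 4 PMT2 and 2 PMT3 plants are labelled topped in 1 tissue and untopped in the other. The part of these labels in the group means was not tested.

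In topped roots more of these genes were higher than lower, as in the table as a whole. A gene was counted as higher or lower when the fold was at least 2 and either group reached 1 RPKM. In TN90 roots 29 of the 64 genes were higher after topping and 4 lower (45.6% and 6.07% of the table). In PMT1 roots 19 were higher and 1 lower (21.2% and 3.81% of the table), and in PMT3 roots 12 were higher and 1 lower (26.5% and 5.83%). PMT2 roots had 6 higher and 1 lower (12.2% and 2.89%). In such bulk tissue, fewer cells of a type and less RNA per cell cannot be told apart. These shares lay near those of the table, or below them, except for the 29.7% of members that were higher in PMT1. That TN90 had the most counted genes holds for ratios of group means only. In the paper's own exact test, fewer genes were called between topped and untopped roots in TN90 than in each PMT line. The median log2 ratio of the members was 0.78 (PMT1), 0.09 (PMT2), 0.23 (PMT3) and 0.94 (TN90), and that of the whole table was 0.43, 0.13, 0.39 and 0.91. The table was thus shifted itself. After each group was centred on its own median over the table, PMT1 had 4 members higher and 4 lower (10.7% and 12.7% of the table), PMT2 had 2 and 4 (8.87% and 4.96%), PMT3 had 6 and 7 (15.3% and 12.7%), and TN90 had 6 and 15 (17.8% and 20.4%).

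In 3 genes the root fold on topping was at least 2 in all 4 genotypes (7.95% of the table), and none of these is a kinase of proteins. They were both copies of phosphoribosyl pyrophosphate (PRPP) synthetase 3 and 1 copy of cytosolic pyruvate kinase 1. No member was at least 2-fold lower in all 4 genotypes (0.0482% of the table). Without regard to size, all 4 topped values exceeded all 4 untopped values in 8 members (11.4% of the table) and lay below them in 1 (3.47%).

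**Figure D1:**
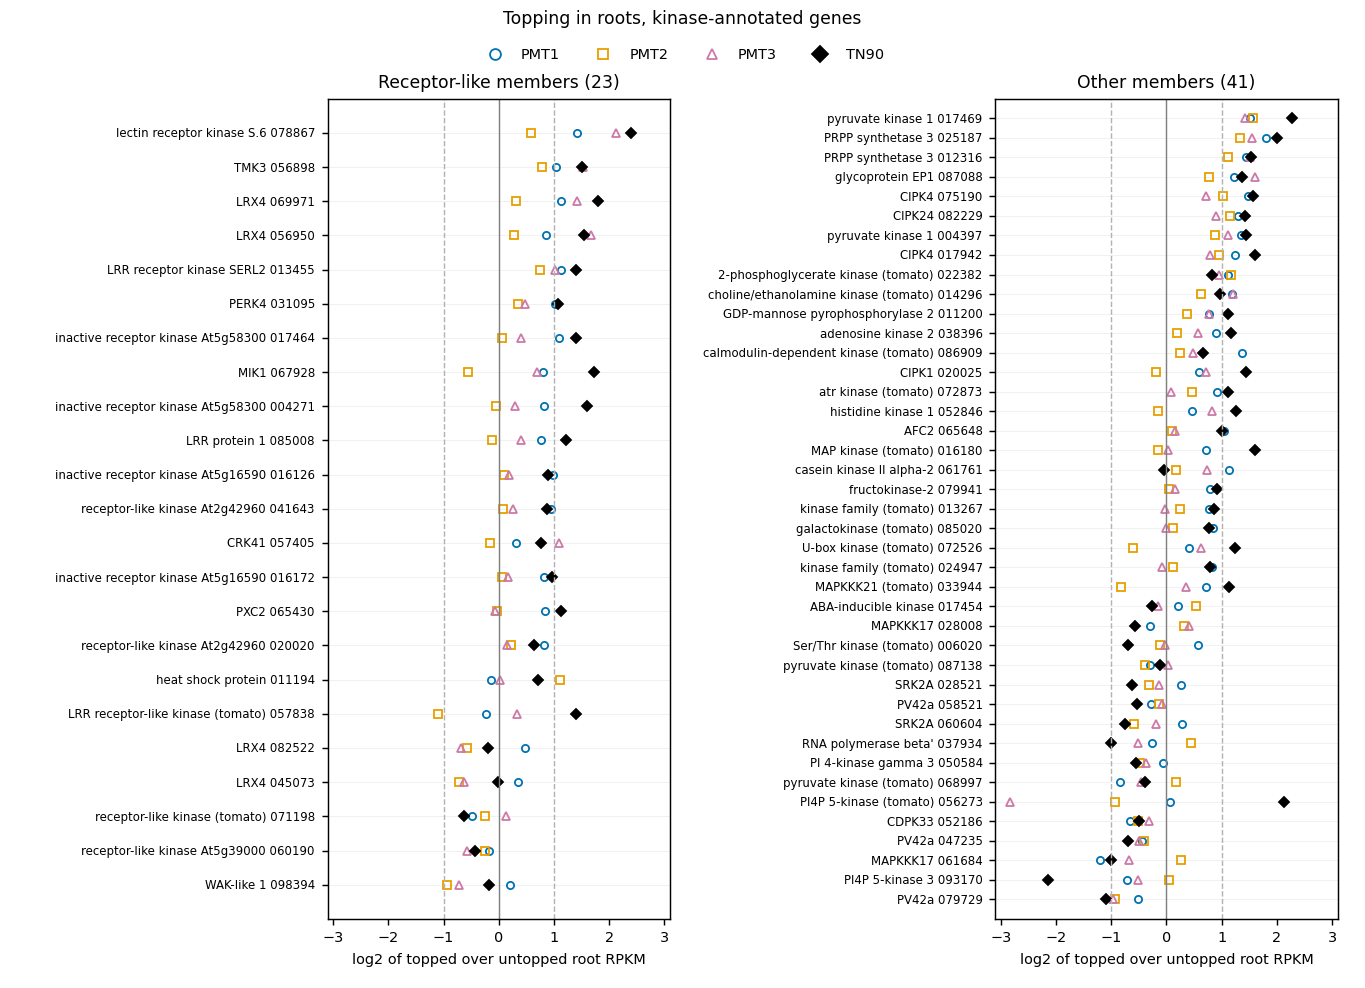
Log2 ratio of topped over untopped root RPKM (x axis) for each member, 1 marker per genotype, with receptor-like members on the left and the others on the right, ordered by their mean ratio and labelled by short name and the digits of the gene identifier. Dashed lines mark 2-fold. Black TN90 markers lie farthest to the right for most of the upper genes, orange PMT2 markers lie near 0 for many receptor-like genes, and pyruvate kinase 1 NITAB017469 and both PRPP synthetase 3 genes head the right panel.

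Of the 23 receptor-like members, 12 (52.2%) were higher and 0 lower in topped TN90 roots, where 45.6% of the table was higher. PMT1 and PMT3 each had 6 higher (26.1%, against 21.2% and 26.5% of the table) and 0 lower, and PMT2 had 0 higher (12.2% of the table) and 1 lower. The share of the table was likewise highest in TN90 and lowest in PMT2. After centring the receptor-like counts no longer had this order, since PMT1 had 0 higher and 0 lower, PMT2 had 0 and 2, PMT3 had 3 and 4, and TN90 had 3 and 2. The receptor-like member with the largest mean log2 ratio was NITAB078867, an L-type lectin receptor kinase S.6, a family with a lectin domain outside the cell. It stood at 1.77, 1.26, 1.93 and 1.08 RPKM in topped roots, against 0.598, 0.815, 0.368 and 0.123 RPKM in untopped roots. Every topped group was above every untopped one, with folds of 1.49 in PMT2 to 5.27 in TN90. The tomato description of this gene is a copper chaperone, so its identity rests on the Swiss-Prot match alone.

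TMK3 (NITAB056898) belongs to a family of transmembrane kinases that take part in auxin responses in Arabidopsis. Its root level was 5.88, 7.79, 4.26 and 6.87 RPKM after topping, against 2.80, 4.48, 1.41 and 2.35 RPKM without it. The topped level was at least 1.72 times the untopped one in each genotype, but untopped PMT2 (4.48 RPKM) exceeded topped PMT3 (4.26 RPKM), so that the treatments overlapped. The LRR receptor kinase SERL2 (NITAB013455), named after the co-receptor family of somatic embryogenesis receptor kinases, had 10.1, 11.3, 6.66 and 9.88 RPKM in topped roots, against 4.57, 6.66, 3.24 and 3.70 RPKM in untopped roots. All topped groups were above all untopped ones, although topped PMT3 and untopped PMT2 both round to 6.66 RPKM, and the folds ran from 1.69 to 2.63.

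Some receptor-like genes were higher in topped TN90 roots but not in topped PMT2 roots. MIK1 (NITAB067928), in Arabidopsis a receptor kinase of the pollen tube, had 9.88, 19.0, 4.27 and 17.1 RPKM in topped roots, against 5.67, 27.9, 2.59 and 5.09 RPKM in untopped roots. Its fold was 3.30 in TN90, whereas in PMT2 the topped value was the lower one by 1.47-fold. The tomato match of this gene is a TRAF-like protein, which is no kinase. The inactive receptor kinase gene NITAB004271 had 7.96, 9.23, 3.53 and 8.07 RPKM after topping, against 4.46, 9.53, 2.88 and 2.61 RPKM in untopped roots, 3.01-fold higher in TN90 and 0.97-fold in PMT2. PERK4 (NITAB031095), a proline-rich kinase thought to sense the cell wall, was 2.04-fold and 2.11-fold higher in PMT1 and TN90 and under 2-fold in the other lines. Inactive receptor kinase NITAB017464, the copy of NITAB004271, was 2.12-fold and 2.64-fold higher in the same genotypes. PXC2 (NITAB065430) passed 2-fold in TN90 alone (2.18), and the At5g16590 pair (NITAB016126 and NITAB016172) and the At2g42960 pair (NITAB020020 and NITAB041643) in no genotype, with at most 1.97 and 1.92.

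The most abundant receptor-like members differed from each other on topping. NITAB057838, an LRR receptor-like kinase by its tomato name only, was at 146, 86.6, 150 and 113 RPKM in topped roots, against 171, 186, 119 and 42.9 RPKM in untopped roots. It was 2.63-fold higher after topping in TN90 and 2.14-fold lower in PMT2. Wall-associated kinase-like 1 (NITAB098394), of a family that binds pectin in the wall, had 114, 31.1, 100 and 189 RPKM in topped roots, against 98.7, 59.8, 165 and 215 RPKM in untopped roots. It was lower after topping in PMT2, PMT3 and TN90, by at most 1.92-fold. Of the less abundant members, NITAB060190 was lower in all 4 genotypes, by 1.14-fold to 1.49-fold, and NITAB071198 stayed within 1.56-fold.

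Leucine-rich repeat extensins (LRX) are wall proteins that bind RALF peptides and carry no kinase domain, and their tomato descriptions nonetheless name receptor-like kinases. The 4 LRX4 genes fell into 2 pairs that differed on topping. NITAB069971 was at 7.42, 10.0, 4.71 and 7.54 RPKM in topped roots, against 3.33, 7.99, 1.69 and 2.09 RPKM in untopped roots. NITAB056950 was at 3.29, 4.64, 2.38 and 4.15 RPKM in topped roots, against 1.78, 3.80, 0.681 and 1.36 RPKM in untopped roots. Both were higher after topping in all 4 genotypes, by up to 3.49-fold and 3.17-fold. The other pair, NITAB045073 and NITAB082522, stayed within 1.64-fold in every genotype and was higher after topping in PMT1 alone of the 4 genotypes. LRR protein 1 (NITAB085008) was 2.32-fold higher in TN90 and not in PMT2 (0.92-fold), and the small heat shock protein gene NITAB011194 was 0.90-fold to 2.16-fold, its largest ratio in PMT2 at under 1 RPKM.

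Among kinases inside the cell, CIPK4 and CIPK24 were higher in topped roots of all 4 genotypes. CIPKs are kinases switched on by calcineurin B-like calcium sensors, and CIPK4 had 2 copies. NITAB017942 was at 53.0, 58.6, 30.4 and 60.5 RPKM in topped roots, against 22.4, 30.5, 17.7 and 19.9 RPKM in untopped roots, and NITAB075190 was at 28.3, 33.5, 13.8 and 28.3 RPKM, against 10.1, 16.4, 8.39 and 9.45 RPKM. Within each genotype the topped value was 1.72 to 3.03 times the untopped one for NITAB017942 and 1.64 to 2.98 times for NITAB075190. Between genotypes the treatments overlapped, since topped PMT3 lay below untopped PMT2. The margin was narrow for NITAB017942 (30.4 against 30.5 RPKM) and wider for NITAB075190 (13.8 against 16.4 RPKM).

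CIPK24, known in Arabidopsis as SOS2, is the kinase that activates sodium export in salt stress. Its gene NITAB082229 was at 8.46, 11.5, 5.16 and 7.86 RPKM in topped roots, against 3.40, 5.09, 2.71 and 2.87 RPKM in untopped roots. All topped groups were above all untopped ones, with folds of 1.87 to 2.68. Calcineurin B-like protein 4 (NITAB074246), the sensor that pairs with CIPK24 in Arabidopsis and which is not itself a member, was at 1.85, 2.70, 1.04 and 1.77 RPKM, against 0.543, 1.67, 0.234 and 0.377 RPKM, 1.58 to 3.93 times the untopped level. CIPK1 (NITAB020025) passed 2-fold in TN90 only, at 3.75 RPKM against 1.31 RPKM, while its 3.41, 4.27 and 1.49 RPKM in the topped lines compared with 2.24, 4.85 and 0.867 RPKM in the untopped ones.

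The remaining calcium-related kinases differed from the CIPKs. CDPK33 (NITAB052186) combines a calcium sensor and a kinase in 1 protein, but its tomato match names the kinase of phosphoenolpyruvate carboxylase. It was lower after topping in every genotype, with 43.0, 31.1, 54.2 and 57.6 RPKM in topped roots, against 68.3, 44.3, 67.4 and 81.5 RPKM in untopped roots, none of them 2-fold apart (1.24 to 1.59 times). The calmodulin-dependent kinase NITAB086909 was 2.57-fold higher in PMT1, at 4.53 RPKM against 1.70 RPKM, and 1.19-fold to 1.58-fold elsewhere.

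Sucrose non-fermenting related kinases (SnRKs) coordinate growth with abscisic acid and energy supply. SRK2A, of the osmotic stress branch, had 2 copies, neither past 2-fold in roots. NITAB028521 was at 11.2, 5.40, 11.2 and 8.11 RPKM in topped roots, against 9.31, 6.78, 12.4 and 12.6 RPKM in untopped roots, and NITAB060604 at 6.25, 2.77, 6.43 and 4.23 RPKM, against 5.11, 4.23, 7.35 and 7.16 RPKM. Both copies were slightly higher after topping in PMT1 and lower in the other genotypes, by at most 1.68-fold. An abscisic acid-inducible kinase, NITAB017454, stayed between 0.83-fold and 1.44-fold.

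The 3 regulatory subunits, all matched to PV42a, a gamma-like subunit of the SnRK1 energy-sensing complex, were lower after topping in all 4 genotypes. NITAB079729 had 5.07, 3.42, 4.06 and 4.19 RPKM in topped roots, against 7.26, 6.61, 8.05 and 9.08 RPKM in untopped roots. It was the only member whose topped values all lay below its untopped values, with a 2.14-fold difference in TN90. NITAB047235 had 10.9, 7.79, 9.78 and 10.4 RPKM, against 14.7, 10.4, 13.8 and 16.9 RPKM, and NITAB058521 5.20, 4.12, 6.10 and 5.17 RPKM, against 6.31, 4.56, 6.49 and 7.52 RPKM. These differences were smaller, 1.33 to 1.62 times and 1.06 to 1.45 times. Centring lowered the root topping ratios of all 4 genotypes, so it could not have brought these 3 genes above 0.

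MAP kinase cascades run through stacked tiers of kinases, and the members came from the top and the bottom tier. The MAP kinase gene NITAB016180 was at 2.56, 2.47, 1.65 and 1.44 RPKM in topped roots, against 1.53, 2.77, 1.61 and 0.409 RPKM in untopped roots. It passed 2-fold in TN90 only (3.03), where its untopped level was the lowest of all 8 root groups. MAPKKK17, which acts in abscisic acid signalling in Arabidopsis, had 2 copies. NITAB061684 was at 0.799, 0.609, 0.758 and 0.969 RPKM in topped roots, against 1.98, 0.490, 1.27 and 2.06 RPKM in untopped roots, 2.31-fold lower in PMT1 and 2.02-fold lower in TN90. The other copy, NITAB028008, had 2.12, 0.939, 1.93 and 1.87 RPKM, against 2.62, 0.739, 1.42 and 2.84 RPKM, with no 2-fold difference. Another gene of the family, NITAB033944, named MAPKKK21 by its tomato match alone, was more abundant, at 31.7, 29.7, 22.1 and 34.6 RPKM, against 19.2, 52.3, 17.3 and 15.7 RPKM, and was 2.20-fold higher in TN90 only.

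Of the 8 other protein kinases, 3 (37.5%) were higher in topped TN90 roots and 2 (25%) in topped PMT1 roots, near the 45.6% and 21.2% of the table, and after centring 0 were higher in any genotype. Histidine kinase 1 (NITAB052846), in Arabidopsis an osmosensor, had 3.76, 5.53, 2.20 and 4.55 RPKM after topping, against 2.70, 6.13, 1.20 and 1.84 RPKM. A U-box kinase (NITAB072526), joining a ubiquitin ligase motif to a kinase, had 35.7, 40.3, 30.2 and 34.3 RPKM, against 26.9, 61.1, 19.7 and 14.5 RPKM. Both were higher in TN90 (2.40-fold and 2.35-fold) and lower in PMT2, where the untopped level was the highest of all root groups. Casein kinase II alpha-2 (NITAB061761), the catalytic subunit of an always active kinase, passed 2-fold in PMT1 alone, at 5.16 RPKM in topped and 2.29 RPKM in untopped roots, and was 1.12-fold and 1.65-fold higher in topped PMT2 and PMT3. AFC2 (NITAB065648), a kinase of splicing factors, was 2.06-fold higher in PMT1 and 1.07-fold to 1.99-fold elsewhere, and NITAB006020, NITAB013267 and NITAB024947 stayed within 1.81-fold.

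Kinases of small molecules included the 3 genes past 2-fold in all 4 genotypes. PRPP synthetase makes the activated ribose used for nucleotides and for pyridine nucleotides, the source of the pyridine ring of nicotine. Its gene NITAB025187 was at 9.60, 14.7, 7.46 and 10.8 RPKM in topped roots, against 2.69, 5.79, 2.47 and 2.63 RPKM in untopped roots, and NITAB012316 was at 9.52, 11.3, 6.69 and 9.63 RPKM, against 3.43, 5.19, 2.27 and 3.27 RPKM. In both copies the lowest topped group exceeded the highest untopped group, and the folds ran from 2.51 to 4.00 and from 2.16 to 2.89. After centring, NITAB025187 was the only member still at least 2-fold higher in all 4 genotypes (3.81% of the table).

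Cytosolic pyruvate kinase ends glycolysis by forming pyruvate and ATP. NITAB017469 was at 7.52, 11.3, 4.35 and 7.84 RPKM in topped roots, against 2.58, 3.74, 1.57 and 1.55 RPKM in untopped roots, 2.67 to 4.81 times as high. Its paired copy NITAB004397 was at 11.4, 14.2, 7.11 and 10.5 RPKM, against 4.44, 7.69, 3.25 and 3.82 RPKM, 1.84 to 2.71 times as high. The pyruvate kinase genes known by their tomato name alone behaved differently, since NITAB087138 stayed within 1.31-fold and NITAB068997 was lower in PMT1, PMT3 and TN90, by at most 1.80-fold.

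Several other enzymes of this kind were higher after topping in all 4 genotypes, with smaller folds. Choline/ethanolamine kinase (NITAB014296), on the way to membrane phospholipids, was at 27.8, 29.2, 18.7 and 21.3 RPKM in topped roots, against 12.1, 19.0, 8.12 and 10.9 RPKM in untopped roots. 2-phosphoglycerate kinase (NITAB022382) was at 4.31, 4.19, 3.04 and 3.61 RPKM, against 1.93, 1.80, 1.53 and 2.00 RPKM, with every topped group higher and folds of 1.77 to 2.25. Adenosine kinase 2 (NITAB038396), which recycles adenosine, was at 21.5, 20.2, 12.2 and 18.8 RPKM, against 11.5, 17.7, 8.18 and 8.37 RPKM. Fructokinase-2 (NITAB079941), the entry of fructose into metabolism, was 1.03-fold to 1.89-fold, and galactokinase (NITAB085020) was at most 1.79-fold higher and 1.01-fold lower in PMT3. Members with no kinase in the Swiss-Prot match, the secreted glycoprotein EP1 (NITAB087088) and GDP-mannose pyrophosphorylase 2 (NITAB011200), followed with 1.71-fold to 3.04-fold and 1.29-fold to 2.15-fold.

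Among the lipid kinases, both phosphatidylinositol-4-phosphate 5-kinase genes were abundant in roots and differed in sign between genotypes. Phosphatidylinositol-4-phosphate 5-kinases make the membrane lipid that guides actin and vesicle traffic. NITAB093170, matched to isoform 3 in Swiss-Prot and to no tomato protein, was at 3197, 3486, 5505 and 1563 RPKM in topped roots, against 5268, 3360, 7843 and 6927 RPKM in untopped roots. It was 4.43-fold lower after topping in TN90 and 1.04-fold higher in PMT2. NITAB056273, matched only in tomato, was 4.39-fold higher in TN90, at 283 RPKM in topped and 64.3 RPKM in untopped roots, and was 7.16-fold lower in topped PMT3 roots, at 88.4 RPKM against 634 RPKM. In PMT1 and PMT2 it was at 250 and 113 RPKM, against 241 and 215 RPKM. Phosphatidylinositol 4-kinase gamma 3 (NITAB050584) was lower after topping in all genotypes by 1.04-fold to 1.47-fold.

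**Figure D2:**
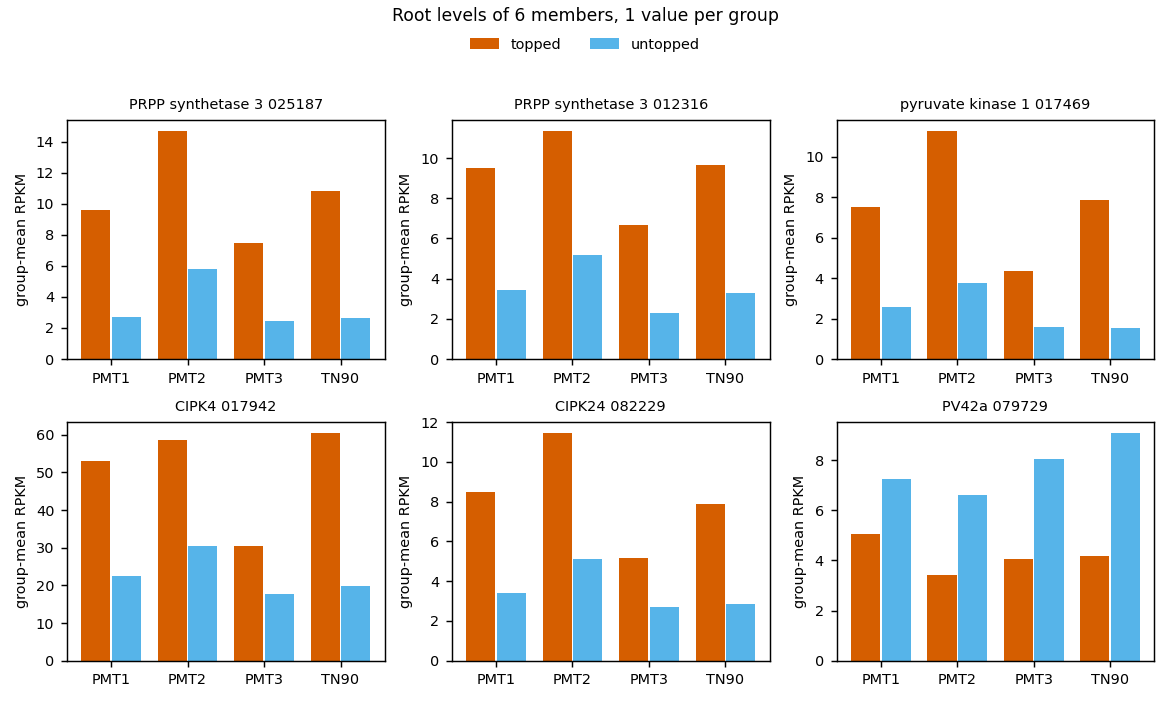
Group-mean RPKM (y axis, from 0) in topped (orange) and untopped (blue) roots of each genotype for 6 members, 1 bar per group and no error bars because each group has 1 value. Topped bars are higher in every genotype for the PRPP synthetase 3, pyruvate kinase 1, CIPK4 and CIPK24 genes, and lower in every genotype for PV42a NITAB079729.

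In leaves, most of the members counted on topping came from TN90. After topping, PMT1 leaves had 1 member higher and 0 lower (3.37% and 4.05% of the table), PMT2 leaves had 1 and 2 (2.65% and 1.64%), PMT3 leaves had 1 and 1 (4.29% and 1.69%), and TN90 leaves had 6 and 12 (7.61% and 12.4%). The 12 genes are 18.8% of the members. Topped leaf values all lay above the untopped ones in 2 members, pyruvate kinase 1 NITAB004397 and EP1 (4.19% of the table). Both stayed under 1 RPKM in every leaf group, at 0.0416 to 0.315 RPKM and 0.119 to 0.322 RPKM. No member reached 2-fold in the same direction in all 4 genotypes (0.578% of the table higher, 0% lower). Topped TN90 leaves were the lowest of the 8 leaf groups for 16 members and the highest for 15 (20% and 22.4% of the table). That group is the one with the fewest listed libraries, and the part of this in its values was not tested.

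The largest leaf difference was in wall-associated kinase-like 1, NITAB098394. It was at 71.3, 65.0, 124 and 21.4 RPKM in topped leaves, against 83.0, 133, 222 and 333 RPKM in untopped leaves. TN90 thus held both the highest and the lowest leaf value, 15.5-fold apart, while in the lines topped leaves were 1.16-fold to 2.05-fold lower. Its root values, given above, showed no such range.

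Both SRK2A copies and a PV42a copy shared this pattern in leaves, though not in roots. NITAB028521 was at 6.70, 5.05, 5.68 and 0.958 RPKM in topped leaves, against 5.98, 4.80, 9.10 and 10.8 RPKM in untopped leaves. NITAB060604 was at 2.51, 1.86, 1.96 and 0.472 RPKM, against 1.98, 1.82, 3.73 and 4.25 RPKM, and PV42a NITAB047235 at 1.65, 2.08, 4.25 and 0.577 RPKM, against 2.92, 1.86, 5.14 and 5.79 RPKM. Topped TN90 leaves were the lowest group and untopped TN90 leaves the highest for all 3 genes, with 10.3-fold, 7.60-fold and 8.70-fold lower levels after topping. In PMT1 and PMT2 the SRK2A genes changed by no more than 1.26-fold.

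Other members lower in topped TN90 leaves included fructokinase-2, at 1.38 RPKM against 5.13 RPKM, and the serine/threonine kinase NITAB006020, at 0.921 RPKM against 3.57 RPKM. CDPK33 (NITAB052186), at 2.17 RPKM against 7.00 RPKM, was lower in all 4 genotypes. The receptor-like kinases NITAB060190 and NITAB071198 were the members whose topped leaf values all lay below their untopped ones (0.916% of the table). NITAB071198 was under 1 RPKM in every leaf group, at 0.115 to 0.503 RPKM. NITAB060190 was at 1.25, 1.78, 1.71 and 1.57 RPKM, against 2.16, 2.45, 3.00 and 4.19 RPKM, and is matched to the receptor-like kinase At5g39000 in Swiss-Prot but to a late embryogenesis abundant protein in tomato.

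The 6 members that were higher in topped TN90 leaves came from several classes. TMK3 (NITAB056898) was at 1.93, 2.38, 1.20 and 3.53 RPKM in topped leaves, against 1.63, 2.11, 1.03 and 0.832 RPKM in untopped leaves. CIPK1 (NITAB020025) was at 2.75, 3.26, 0.818 and 3.87 RPKM, against 2.29, 2.80, 1.57 and 1.18 RPKM. Kinase family genes NITAB024947 and NITAB013267, known by a tomato name only, were at 3.10 and 3.41 RPKM in topped TN90 leaves, against 0.833 and 1.15 RPKM in untopped ones. GDP-mannose pyrophosphorylase 2 (NITAB011200) was at 9.37 RPKM in topped and 3.68 RPKM in untopped TN90 leaves. The phosphatidylinositol-4-phosphate 5-kinase NITAB056273 was at 125, 7.33, 4.51 and 29.7 RPKM in topped leaves, against 21.6, 21.2, 18.6 and 12.2 RPKM in untopped leaves. It was higher after topping in PMT1 and TN90 (5.76-fold and 2.41-fold) and lower in PMT2 and PMT3 (2.87-fold and 4.06-fold), so its direction differed between genotypes in leaves as in roots. The folds in TN90 of TMK3, CIPK1 and the 2 kinase family genes were 3.90, 3.11, 3.43 and 2.82, and TMK3 and CIPK1 were also higher in topped TN90 roots. The PRPP synthetase 3, CIPK4 and CIPK24 genes, in contrast, were not higher in topped leaves by more than 1.38-fold in any genotype, and CIPK4 NITAB075190 was 2.04-fold lower in TN90 leaves.

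**Figure D3:**
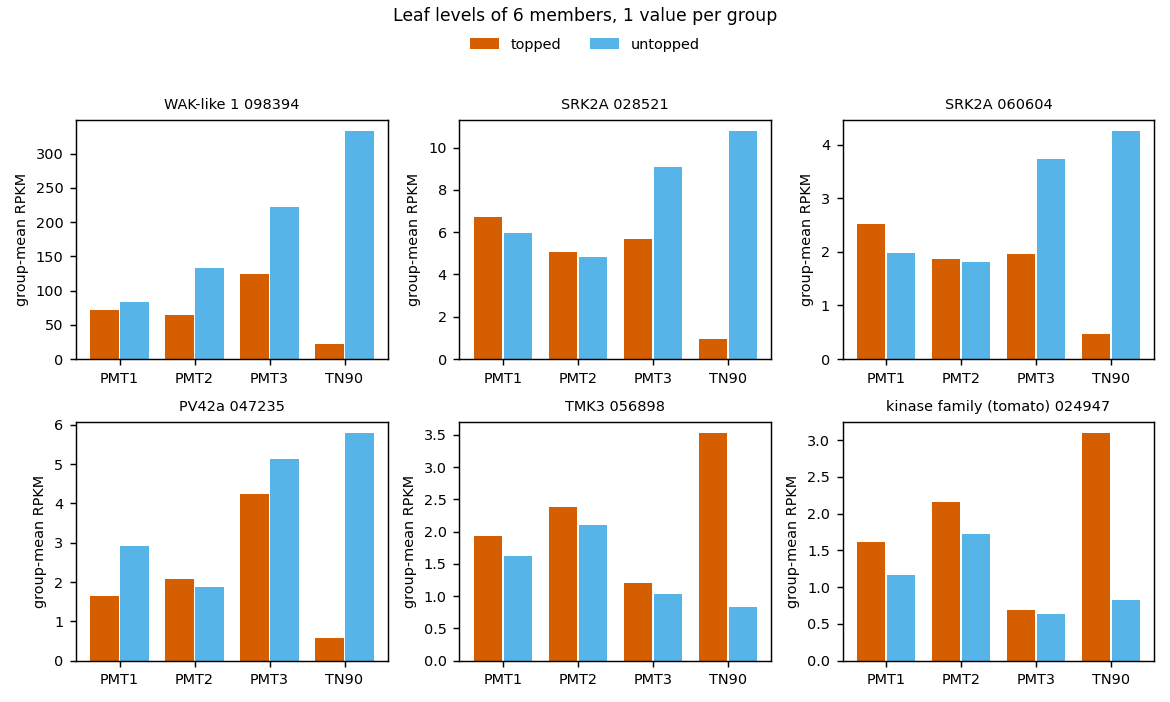
Group-mean RPKM (y axis, from 0) in topped (orange) and untopped (blue) leaves of each genotype for 6 members, 1 bar per group. For wall-associated kinase-like 1, both SRK2A copies and PV42a NITAB047235 the untopped TN90 bar is the highest and the topped TN90 bar the lowest, and for TMK3 and the kinase family gene NITAB024947 the topped TN90 bar is the highest.

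The PMT lines were next compared with TN90 in roots. In untopped roots PMT1 had 3 members higher and 4 lower (8.77% and 3.08% of the table), PMT2 had 26 and 6 (38.3% and 8.63%), and PMT3 had 6 and 1 (5.54% and 8.63%). In topped roots PMT1 had 3 higher and 1 lower (4.14% and 6.84%), PMT2 had 2 and 4 (5.01% and 6.80%), and PMT3 had 4 and 8 (4.92% and 17.3%). The table itself was shifted in PMT2 untopped roots, with a median log2 ratio of 0.72, and in PMT3 topped roots, with -0.39. After centring, 11 members were higher and 15 lower in untopped PMT2 roots (20.9% and 22.6% of the table), and 5 were higher and 2 lower in topped PMT3 roots (8.96% and 8.29%). The part of the plants with contradictory treatment labels in these 2 lines was not tested. The 3 comparisons within a treatment share the TN90 values, and no member was at least 2-fold apart in the same direction in all 6 ratios (0.386% of the table higher, 0.241% lower).

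Many receptor-like members lay above TN90 in untopped roots, mostly by less than 2-fold in PMT1 and PMT3. Without regard to size and without centring, all 3 lines exceeded TN90 in 13 of 23 receptor-like members and in 12 of 41 others (28.7% of the table), and lay below it in 4 and 13 (23.4%). Several of the 13 are paired copies, and NITAB017464 is among them with 2.24 RPKM in PMT3, against 2.23 RPKM in TN90. In topped roots all 3 lines were above TN90 in 6 members (11.2% of the table) and below it in 11 (21.2%). NITAB057838, the abundant LRR receptor-like kinase, had 171, 186 and 119 RPKM in untopped roots of the lines, against 42.9 RPKM in TN90, 2.76 to 4.31 times as high. In topped roots the same gene had 146, 86.6 and 150 RPKM, against 113 RPKM, and did not differ by 2-fold. MAP kinase NITAB016180 showed the same contrast, with 1.53, 2.77 and 1.61 RPKM in untopped roots of the lines, against 0.409 RPKM in TN90, and 2.56, 2.47 and 1.65 RPKM in topped roots, against 1.44 RPKM.

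Several members were lower in the lines. Casein kinase II alpha-2 (NITAB061761) was at 2.29, 2.15 and 3.48 RPKM in untopped roots of the lines, against 8.51 RPKM in TN90, 2.40 to 3.83 times lower. In topped roots it was at 5.16, 2.42 and 5.83 RPKM, against 8.22 RPKM, with PMT2 alone past 2-fold. The heat shock protein gene NITAB011194 was at 0.902, 0.288 and 1.50 RPKM in untopped roots, against 2.19 RPKM, and at 0.804, 0.738 and 1.53 RPKM in topped roots, against 3.65 RPKM. Wall-associated kinase-like 1 was at 98.7, 59.8 and 165 RPKM, against 215 RPKM in untopped roots, and at 114, 31.1 and 100 RPKM, against 189 RPKM in topped roots. These 3 genes lay below TN90 in all 6 comparisons, and PMT2 had the lowest root value of each.

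Several differences varied from line to line, while that of NITAB037934 was shared by all lines in topped roots. CRK41 (NITAB057405), a cysteine-rich receptor-like kinase of a family linked to defence and oxidative stress, was at 2.86 RPKM in topped and 1.29 RPKM in untopped PMT3 roots, against 0.492 to 0.741 and 0.394 to 0.563 RPKM in the other genotypes. Its leaf level was 0.201 and 0.310 RPKM in topped and untopped PMT3, against at most 0.0272 RPKM in the other 6 leaf groups. MIK1 was highest in untopped PMT2 roots and lowest in untopped PMT3 roots, 5.39-fold higher and 1.93-fold lower than untopped TN90. Both MAPKKK17 copies were lower than TN90 in untopped PMT2 roots, by 3.51-fold and 3.66-fold. NITAB037934 is matched to the beta' subunit of a DNA-directed RNA polymerase and called a pyruvate kinase only by its tomato name. It was higher than TN90 in topped roots of all lines, at 1.79, 1.29 and 2.39 RPKM, against 0.581 RPKM.

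**Figure D4:**
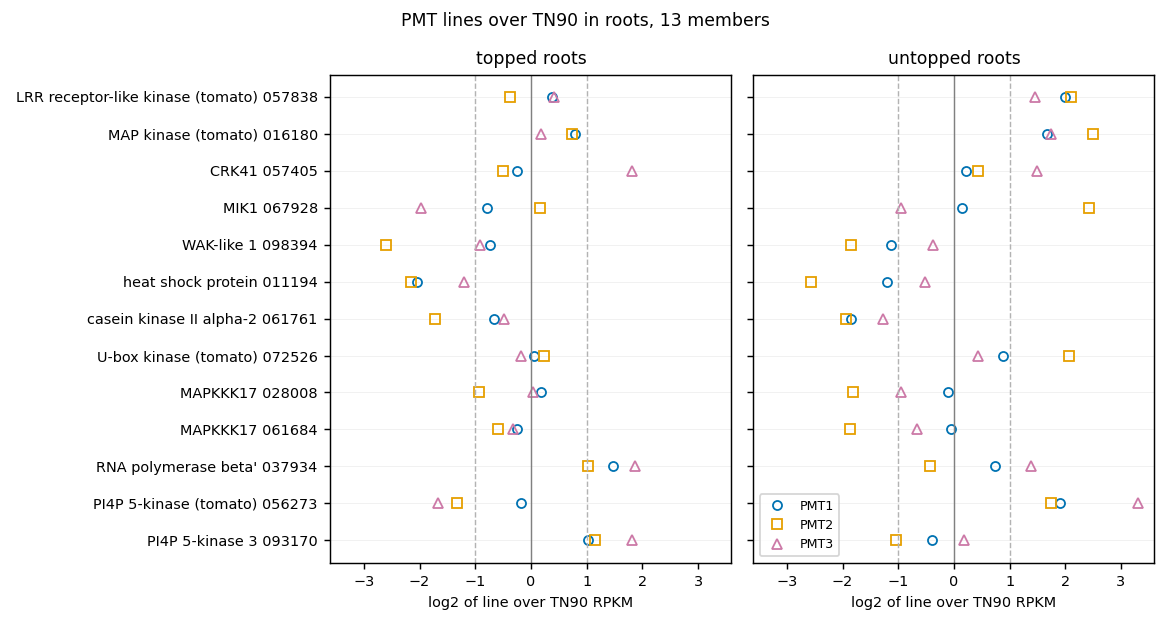
Log2 ratio of each PMT line over TN90 (x axis) in topped (left) and untopped (right) roots for 13 members, 1 marker per line, with dashed lines at 2-fold. The LRR receptor-like kinase NITAB057838 and MAP kinase NITAB016180 lie past 2-fold in all 3 lines in untopped roots but not in topped roots, and casein kinase II alpha-2, wall-associated kinase-like 1 and the heat shock protein gene lie left of 0 in every comparison.

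In leaves the lines were compared with the same TN90 values that enter its topping ratios. In topped leaves PMT1 had 7 members higher and 1 lower (6.65% and 5.06% of the table), PMT2 had 7 and 1 (6.70% and 3.57%), and PMT3 had 10 and 6 (11.8% and 6.41%). Centred, topped PMT2 leaves had 5 and 4 (5.25% and 5.54%). In untopped leaves PMT1 had 0 higher and 4 lower (1.98% and 4.43%), PMT2 had 2 and 6 (4.24% and 8.63%), and PMT3 had 1 and 0 (1.35% and 3.47%). All 3 lines were above TN90 in 19 members in topped and 14 in untopped leaves (26.7% and 20.4% of the table), and below it in 19 and 16 (31.9% and 24.2%). None was past 2-fold in all 6 ratios (0.482% of the table higher, 0.145% lower). Wall-associated kinase-like 1, both SRK2A copies, PV42a NITAB047235 and fructokinase-2 were at least 2.59 times as high in topped leaves of all 3 lines as in topped TN90. In untopped leaves wall-associated kinase-like 1, both SRK2A copies and PV42a were below TN90 in all 3 lines, so that the sign turned with the treatment. Casein kinase II alpha-2 was lower in the untopped leaves of the lines as it was in roots, at 0.842, 1.07 and 2.19 RPKM, against 4.09 RPKM.

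The gene NITAB072873, named after the DNA damage kinase ATR by its tomato match, reached 1 RPKM in leaves of PMT3 alone. It stood at 1.22 RPKM in topped and 1.23 RPKM in untopped PMT3 leaves, against 0.0206 to 0.0734 RPKM in the other 6 leaf groups. Compared with TN90, that is 7.97 times as high in topped and 9.18 times as high in untopped leaves. In roots PMT3 did not stand out, with 3.37 RPKM in topped and 3.20 RPKM in untopped roots, against 6.11 and 2.78 RPKM in TN90. CRK41, described above, also had its highest leaf values in both PMT3 groups.

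Most members were higher in roots than in leaves, as was most of the table. Median levels over the 8 root groups ran from 0.586 to 4377 RPKM with a middle value of 5.60 RPKM, and those over the 8 leaf groups from 0.0097 to 1589 RPKM with a middle value of 0.567 RPKM. For 48 of 64 members all root groups exceeded all leaf groups (67.6% of the table), and for none was it the reverse (2.27%). At least 2-fold higher in roots in all 8 pairs of 1 genotype and treatment were 43 members, and 0 were lower (62.2% and 2.02% of the table). After centring, 7 were higher and 11 lower (17.3% and 21.3%).

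Many members were barely detected in leaves. Below 1 RPKM in all 8 leaf groups were 15 of 23 receptor-like and 17 of 41 other members (48.9% of the table). CIPK4 NITAB017942 was among the most root-biased genes, at 42 to 216 times the leaf level as folds of RPKM + 0.1. The added 0.1 RPKM lowers such folds for genes with leaf values near 0, so the genes are not ranked. The LRX4 pair NITAB045073 and NITAB082522 had 4.23 to 8.73 and 3.79 to 8.19 RPKM in roots, against 0.0068 to 0.0332 and 0.00515 to 0.0335 RPKM in leaves. The inactive receptor kinases NITAB004271 and NITAB017464 and LRR protein 1 NITAB085008 were at most 0.0586 RPKM in any leaf group. The paired CIPK4 copy NITAB075190 had 0.798 to 2.17 RPKM in leaves. The abscisic acid-inducible kinase NITAB017454 was the only member with a lower root than leaf level in all 8 pairs, at 2.84 to 5.77 RPKM in roots, against 4.29 to 7.83 RPKM in leaves, with overlapping ranges.

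**Figure D5:**
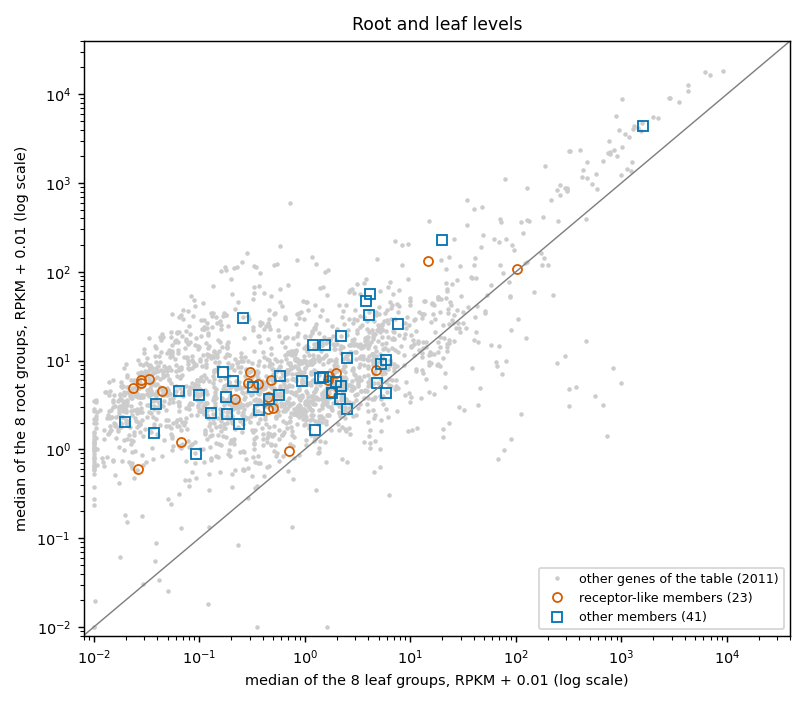
Median RPKM + 0.01 over the 8 root groups (y axis) against that over the 8 leaf groups (x axis), both on log scales, for receptor-like members (orange circles), other members (blue squares) and the 2011 remaining genes of the table (grey). Most members lie above the line of equal levels, as the grey genes do, and the highest square is phosphatidylinositol-4-phosphate 5-kinase 3.

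Tobacco carries the genomes of both its parental species, so many genes occur as copies, and 22 members formed 11 pairs whose matches had the same accession in Swiss-Prot and in tomato (the 4 LRX4 genes share a description but have 2 tomato accessions, and so form 2 pairs). Within 8 of the 11 pairs the log2 root topping ratios of the copies differed by at most 0.5 in every genotype. The closest pair was inactive receptor kinase At5g16590 (NITAB016126 and NITAB016172), whose ratios differed by at most 0.16. The widest pair was MAPKKK17, with a difference of up to 1.09, followed by pyruvate kinase 1 with 0.83. CIPK4 NITAB017942 had a median of 2.09 times the root level of NITAB075190, while PRPP synthetase 3 copies were nearly equal (0.91 times). A read could be placed at several sites, so near-identical copies may share reads, and pairs are not independent of each other.

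Partners of these kinases were few in the table. Of 5 protein phosphatase genes, which reverse phosphorylation, 2 were higher and 0 lower in topped TN90 roots, 1 and 0 in PMT3, and 0 and 0 in PMT1 and PMT2. Protein phosphatase 2C 34 (NITAB076995) reached 2.43 RPKM in topped TN90 roots, against 0.257 RPKM, but was 1.60-fold lower in topped PMT1. Of 8 calcium sensors 3 were higher and 1 lower in TN90, PMT1 had 1 and 1, PMT2 had 0 and 0, PMT3 had 1 and 0, and calcineurin B-like protein 4 had the largest mean log2 ratio. Of 5 signal peptide genes, ligands of receptor-like kinases among them, 1 was higher in TN90 and 0 in the lines. Among these 5, NITAB085178 is a signal peptide by its tomato name only, and its Swiss-Prot match is a retinoblastoma-related protein. In TN90 roots 45.6% of the table was higher, so none of these 3 lists exceeded it. For PMT1, PMT2 and PMT3 roots the share of the table that was higher was 21.2%, 12.2% and 26.5%. The single receptor-like protein without a kinase, NITAB062351, was higher in every genotype by 1.61-fold to 2.35-fold.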

How the data were processed

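Total RNA was sequenced as stranded libraries. Reads were mapped by the authors with Qiagen CLC Genomics Workbench to an updated tobacco genome whose build is not given in the sources used here, allowing several hits per read. The deposited RPKM values are the authors' means over the libraries of a group, for genes they called in roots with edgeR's exact test. The deposited library read counts were used for depth only. Gene names are those of the table, and 0 of its identifiers were found in the reference gene table, so no position or sequence is given.

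Ratios here are differences of log2(RPKM + 0.1) between groups. Genes were counted at 2-fold with at least 1 RPKM in either group, or, over several ratios, in any group of the tissue. The rule for members to name (55 of 64) took those past 2-fold in all ratios of a family, the 3 largest counted ratios per comparison and side, the 3 most abundant, the paired copies and those whose name is no kinase of proteins. Outside it, CIPK1, CIPK24, PERK4, PXC2, AFC2, the abscisic acid-inducible kinase, NITAB013267, NITAB024947 and NITAB071198 were named after their values were seen. Members and lists were chosen with earlier results of these data known. The counting steps were tested on simulated data. Alternatives were other pseudocounts, no minimum, centring, protein kinases by name only and leaving out PMT2. Python 3.11.15, numpy 2.4.6, pandas 2.3.3 and matplotlib 3.10.9 were used.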

Additional observations from a re-analysis of the deposited data

How the results depend on the processing

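Summed over the 4 genotypes, 66 root topping ratios of members were counted as higher and 7 as lower, against 42 and 3 with a pseudocount of 1 RPKM, 18 and 30 after centring, and 35 and 3 for protein kinases by name. Protein kinases by name are 38 of the 64 members, so all counts for them come from a smaller set and are not like for like. The 3 members higher in all 4 genotypes became 1 after centring, 0 for protein kinases by name and 9 without PMT2. In leaves the 9 higher topping ratios became 15 with no minimum and 5 for protein kinases by name. In the comparisons of lines with TN90, the 44 higher root ratios became 24 with a pseudocount of 1 RPKM and 23 for protein kinases by name, the 24 lower ones became 15 for protein kinases by name, and the 27 higher leaf ratios became 14 with a pseudocount of 1 RPKM. Centring turned the 43 members higher and 0 lower in roots than in leaves in all 8 pairs into 7 and 11. A pseudocount of 0.01 RPKM moved none of these counts by over 1.5 times. Of 210 single ratios counted, 131 were still counted with a pseudocount of 1 RPKM and 138 after centring. No paired analysis was possible because the values are group means. The genes were selected on root differences, so a member that differs in roots is no independent finding, and the spread between plants is unknown for every value.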
